A study of Mus musculus with 10 samples.

Results

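The mouse heart obtains most of its ATP by oxidising long-chain fatty acids, and 38 genes for their uptake, storage and oxidation were examined in hearts of *Rit1* M90I/+ mice given a MEK inhibitor (MEKi) or vehicle. The genes were taken by name from a table of 54532 annotated genes, and all 38 were found. They cover uptake and lipoprotein lipolysis (5 genes), activation and the carnitine shuttle (7), beta-oxidation (12), electron transfer (3), thioesterases with uncoupling and pyruvate dehydrogenase control (5), and triacylglycerol storage and lipolysis (6).

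RNA-seq was performed on poly(A)-selected RNA of 10 hearts, 5 per group and each labelled as a biological replicate. All 10 mice were heterozygous for *Rit1* M90I, a variant of the RAS-family GTPase RIT1 carried here in the germline, since the conditional allele was recombined by a CMV-Cre deleter. No wild-type heart was among the 10, and the methods give male and female littermates without the sex of each heart. The MEKi group received trametinib, an allosteric inhibitor of MEK1 and MEK2, at 1 mg/kg once daily for 20 weeks from 4 weeks of age, and the vehicle group received the diluent over the same period. The comparison asks how cardiac transcripts differ with MEK inhibition in this model of RIT1-driven hypertrophy, and the labels do not say which chambers were taken.

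In cardiomyocytes, fatty acids released from lipoproteins are taken up, joined to coenzyme A, passed into mitochondria as acylcarnitines and shortened by beta-oxidation, whose electrons reach the respiratory chain through the electron transfer flavoprotein. Surplus acyl groups are kept in lipid droplets as triacylglycerol. The nuclear receptor PPAR alpha, which binds fatty acids, drives many of these genes.

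Libraries held 13647167 to 16659254 fragments in vehicle hearts and 14868373 to 18474002 in MEKi hearts, and mitochondrially encoded transcripts took 24.7 to 35.0% and 23.9 to 28.7% of them. Cardiomyocyte markers were abundant throughout, with summed levels (FPKM, fragments scaled to gene length and library size) of 16400 to 22620 in vehicle and 16300 to 21970 in MEKi hearts. Atrial markers summed to 2196 and 842 FPKM in vehicle hearts 4 and 5 and to 1136 FPKM in MEKi heart 2, against 143 to 473 FPKM in the other hearts, and red cell transcripts reached 23640 and 25870 FPKM in vehicle hearts 4 and 5 against 2899 to 7386 FPKM elsewhere. *Xist* had 1456 to 2199 fragments in every MEKi heart and at most 2 in vehicle hearts, while the Y-linked *Ddx3y* had 814 to 901 fragments in every vehicle heart and 0 in MEKi hearts, where a count of 0 allows up to 3. The sex-linked transcripts thus split the hearts exactly as treatment did, and the parts of sex and of treatment cannot be told apart in any difference given here. None of the 38 genes lies on a sex chromosome or in the mitochondrial genome.

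The promoters of *Pdk4*, *Ucp3* and *Cpt1a* are shown because these genes had the lowest unadjusted p-values among the members with a promoter in the RefSeq table (build GRCm38.p6), which matched 29 of the 38 genes with 34 promoters. Each sequence is 300 bases long, from 250 before to 50 after the RefSeq start site, read 5′ to 3′ on the strand of the gene. Capitals mark AGGTCA, the half-site of nuclear receptors such as PPAR alpha, or its reverse complement. The positions are chr6:5496229-5496528 (minus strand) for *Pdk4*, chr7:100472741-100473040 (plus strand) for *Ucp3* and chr19:3323051-3323350 (plus strand) for *Cpt1a*.
Pdk4: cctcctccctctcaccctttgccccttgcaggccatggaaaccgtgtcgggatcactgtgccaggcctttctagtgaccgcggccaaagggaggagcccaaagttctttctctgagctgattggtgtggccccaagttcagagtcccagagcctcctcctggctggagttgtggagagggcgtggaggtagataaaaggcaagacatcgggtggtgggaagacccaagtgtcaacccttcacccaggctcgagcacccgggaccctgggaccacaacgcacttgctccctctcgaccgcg
Ucp3: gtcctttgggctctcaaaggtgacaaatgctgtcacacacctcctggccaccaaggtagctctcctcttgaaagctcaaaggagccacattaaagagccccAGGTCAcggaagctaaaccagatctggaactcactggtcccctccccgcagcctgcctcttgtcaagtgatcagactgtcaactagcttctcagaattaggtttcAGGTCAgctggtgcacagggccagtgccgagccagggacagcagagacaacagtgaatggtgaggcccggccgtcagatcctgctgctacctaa
Cpt1a: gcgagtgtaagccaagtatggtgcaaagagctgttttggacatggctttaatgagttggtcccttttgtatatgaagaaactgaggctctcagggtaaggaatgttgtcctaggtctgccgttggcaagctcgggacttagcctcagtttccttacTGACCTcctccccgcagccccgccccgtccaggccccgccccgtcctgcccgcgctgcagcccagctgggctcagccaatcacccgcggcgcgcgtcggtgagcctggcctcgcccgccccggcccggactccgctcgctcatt
The half-site, searched on both strands, occurred in 10 of the 34 member promoters and in 16.3% of all 32851 promoters of this length. It stood 149 and 44 bases before the start site in *Ucp3*, and 94 bases before it, on the reverse strand, in *Cpt1a*. It was not among these letters in *Pdk4*. The forkhead motif GTAAACA was found in 1 member promoter (*Lipe*) and in 3.65% of all promoters, and AGAACA, a half-site of the glucocorticoid receptor, in 3 member promoters (*Acot1*, *Hadh* and *Mlycd*) and in 19% of all. Such matches are descriptions of the letters and not of binding. Member promoters had a median GC content of 60.7%, against 52.7% over all promoters.

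Fatty acid genes ranked among the more abundant transcripts of the heart, with 25 of the 38 in the 1000 genes of highest mean FPKM and 13 at 100 FPKM or more. Together they took 2.49 to 2.97% of the nuclear-encoded fragments in vehicle hearts (median, 2.83%) and 2.63 to 2.98% in MEKi hearts (median, 2.93%). *Fabp3*, the heart fatty acid binding protein, was the most abundant member at 17th place among all genes. *Cpt1b*, which encodes the muscle isoform of carnitine palmitoyltransferase, was the lowest member at a mean of 0.438 FPKM, and was the only member below the filter of 0.5 FPKM, so that 37 genes were tested.

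**Figure D1:**
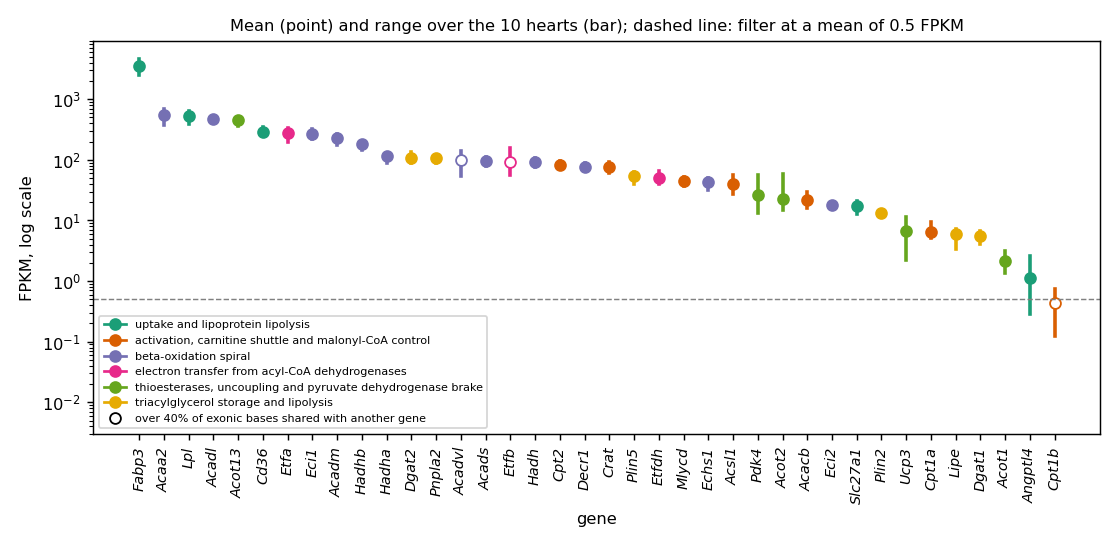
Level of each of the 38 genes, in FPKM on a log scale, as the mean (point) and range (bar) over the 10 hearts, coloured by role and ordered by mean. *Fabp3* leads at 3547 FPKM, and the open points mark *Acadvl*, *Etfb* and *Cpt1b*, whose exons overlap those of other genes over more than 40% of their bases.

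None of the 37 genes passed an adjusted p of 0.05 in limma. The background over 12602 genes was 0.0555% called lower in MEKi hearts and 0.0238% called higher. With X, Y and mitochondrially encoded genes left out, where no member lies, 0 genes were called. At an unadjusted p under 0.05, 4 members were lower and 0 higher, against a background of 3.94% of all genes lower and 3.67% higher. Voom on the recovered fragments gave the same counts of 0 adjusted calls and 4 lower genes. The groups did not overlap for 1 member, *Pdk4*, which was lower, whereas 0.849% of all genes did not overlap in the lower direction and 0.794% in the higher. By sign alone, 13 members were lower and 24 higher, against 6035 lower and 6567 higher among all genes. The median log2 fold change was 0.08 for the members and 0.01 for all genes. The balance of signs among the members rested on a few hearts. Without vehicle hearts 4 and 5 and MEKi heart 2, the 3 hearts with the most atrial transcript, 19 members were lower and 18 higher. The median of the members was then −0.00399. It was 0.03 without vehicle heart 5 and 0.05 without vehicle heart 4. On a TPM scale it was 0.16, but the median of all genes also rose, to 0.09. For 28 of the 37 genes, the log2 fold change was within 0.25 of 0.

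**Figure D2:**
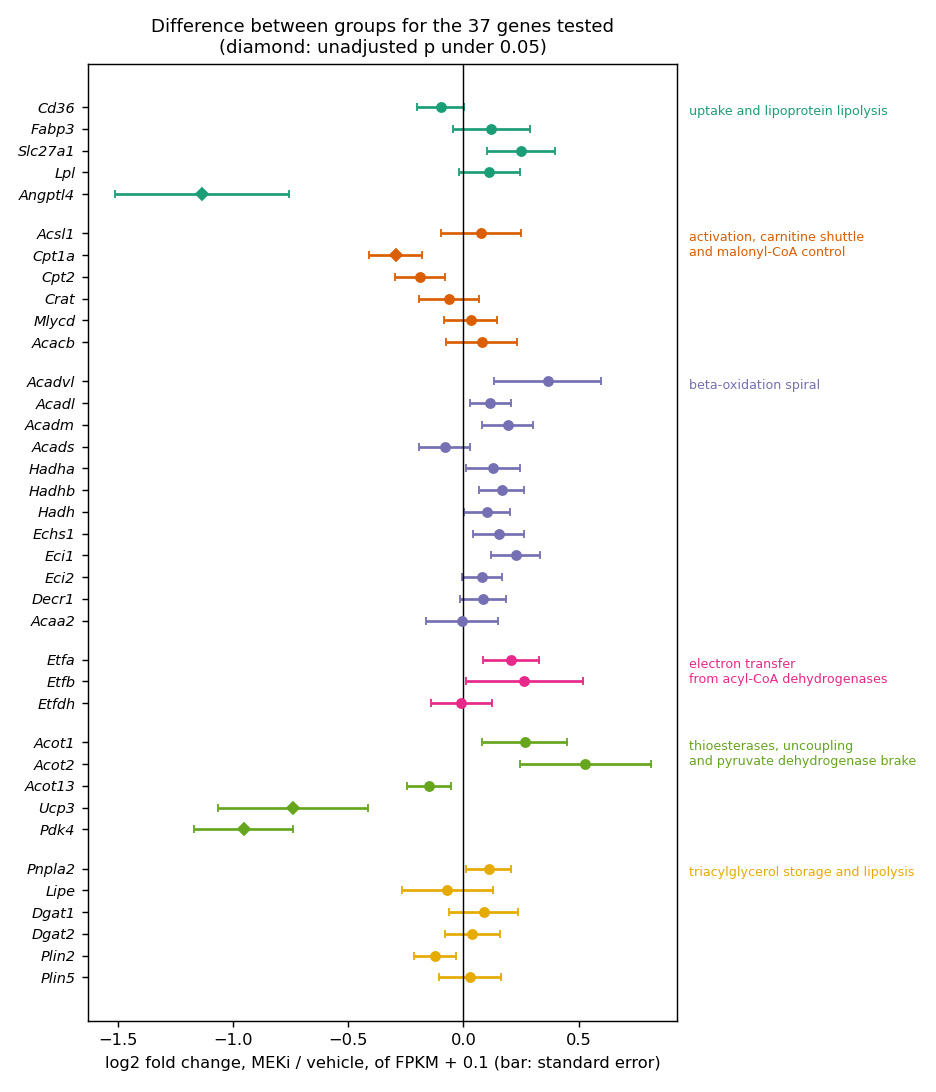
Log2 fold change (MEKi over vehicle, of FPKM + 0.1) with its standard error for the 37 genes tested, grouped by role. The 4 diamonds, with an unadjusted p under 0.05, are *Angptl4*, *Pdk4*, *Ucp3* and *Cpt1a*, all on the lower side, while 24 of the other 33 genes lie above 0.

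*Pdk4* encodes pyruvate dehydrogenase kinase 4, which holds pyruvate out of the mitochondrial oxidation that competes with fatty acids. In vehicle hearts 1 to 5 it was at 24.5, 26.1, 33.5, 55.8 and 32.3 FPKM, and in MEKi hearts 1 to 5 at 16.5, 13.4, 23.4, 17.9 and 15.0 FPKM. Every MEKi heart was below the lowest vehicle heart, and vehicle heart 4 stood above the rest. The means were 34.4 ± 12.6 and 17.3 ± 3.85 FPKM (SD, n = 5 each), so that the MEKi mean was 50.1% of the vehicle mean. The log2 fold change was −0.95 ± 0.22 (SE), with an unadjusted limma p of 0.000887, 41st among all genes, and an adjusted p of 0.273. An exact permutation test (two-sided) gave an unadjusted p of 0.00794, the smallest that 5 hearts against 5 allow. Without vehicle hearts 4 and 5 and MEKi heart 2, which carried the most atrial transcript, the log2 fold change was −0.63 (adjusted p = 0.726 in limma), on 7 hearts. The gene (ENSMUSG00000019577) lies at 5483351 to 5496309 on the minus strand of chromosome 6 in build mm10.

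*Angptl4* encodes a secreted inhibitor of lipoprotein lipase and was the second lowest member in level, with 15 to 141 fragments per heart. It was at 2.55, 1.27, 0.599, 1.97 and 1.46 FPKM in vehicle hearts and at 0.675, 0.638, 1.18, 0.459 and 0.291 FPKM in MEKi hearts. The groups overlapped through vehicle heart 3, the other vehicle hearts being above every MEKi heart, and 2 MEKi hearts were below every vehicle heart. Means of 1.57 ± 0.736 and 0.649 ± 0.335 FPKM (SD, n = 5) gave a log2 fold change of −1.14 ± 0.38 (SE; adjusted p = 0.507 in limma). Its exact permutation p, also unadjusted, was 0.0397. With a pseudocount of 1, which shrinks the change of a gene this low, the log2 fold change was −0.61. Its deposited length was 3286 bases, against 3541 exonic bases in the annotation compared here. Larger gaps were found for *Cpt1a* (4300 against 7642 bases) and *Eci1* (1091 against 2127 bases). With the same fragments over the longer length, their mean levels would be 3.7 and 136 FPKM in place of 6.57 and 265 FPKM. Fragments on bases left out of the count, if any, are not in these values. A length rescales a gene in every heart alike.

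*Ucp3*, a mitochondrial carrier named as an uncoupling protein and responsive to fatty acids, was at 11.5, 6.86, 5.29, 9.64 and 8.22 FPKM in vehicle hearts and at 4.30, 4.05, 7.62, 8.19 and 2.23 FPKM in MEKi hearts. MEKi hearts 3 and 4 lay within the vehicle range and the other 3 below it. The log2 fold change was −0.74 ± 0.33 (SE), with an adjusted limma p of 0.635 and an exact permutation p of 0.0794. Without MEKi heart 5, the lowest of the 10, it was −0.47.

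*Cpt1a* encodes the liver isoform of carnitine palmitoyltransferase 1, which commits long-chain fatty acids to mitochondria and is also made in non-muscle cells. Vehicle hearts were at 6.48, 7.19, 6.33, 7.05 and 9.33 FPKM and MEKi hearts at 5.75, 5.20, 6.35, 5.88 and 6.17 FPKM. MEKi heart 3 alone overlapped the vehicle range, by less than 0.1 FPKM, and vehicle heart 5 stood apart at the top. The log2 fold change was −0.29 ± 0.11 (SE), the adjusted limma p was 0.569 and the exact permutation p was 0.0159. It was −0.14 without the 3 hearts of high atrial transcript. These data are from whole tissue, in which fewer cells of a type and less RNA per cell cannot be told apart.

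Macrophage markers summed to 178 to 321 FPKM in vehicle hearts, highest in vehicle heart 5, and to 157 to 194 FPKM in MEKi hearts, with 6 of 6 markers lower by sign and a median log2 fold change of −0.36, of which *C1qb* and *Csf1r* had an unadjusted limma p under 0.05. Endothelial markers summed to 137 to 233 and 133 to 187 FPKM, with 6 of 6 lower by sign and a median of −0.14. Adipocyte markers summed to 99 to 283 and 105 to 241 FPKM, mostly through *Fabp4* (89.1 to 188 FPKM), and *Lep* and *Adrb3* had a median under 0.1 FPKM. Of the 5 adipocyte markers tested, 1 was lower and 4 higher by sign, with a median log2 fold change of 0.74. The adjusted limma p was 0.781 or above for all 5. The 4 higher ones, *Adipoq*, *Cidec*, *Retn* and *Cfd*, had standard errors of 0.855 to 1.47. Vehicle hearts 3 and 5 held at most 0.518 FPKM of each. On the FPKM scale, only *Retn* of the 5 had a higher mean in MEKi hearts. The MEKi means of *Adipoq*, *Cidec*, *Cfd* and *Fabp4* were 95.6, 97.6, 88.7 and 82.7% of the vehicle means. *Cfd* was at 83.0 FPKM in vehicle heart 4 and 81.0 FPKM in MEKi heart 2, against 0.229 to 25.4 FPKM elsewhere. *Adipoq* was also highest in those hearts, at 7.33 and 6.84 FPKM. The part of these cells in the values of *Angptl4*, *Cpt1a* and *Ucp3* was not tested.

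**Figure D3:**
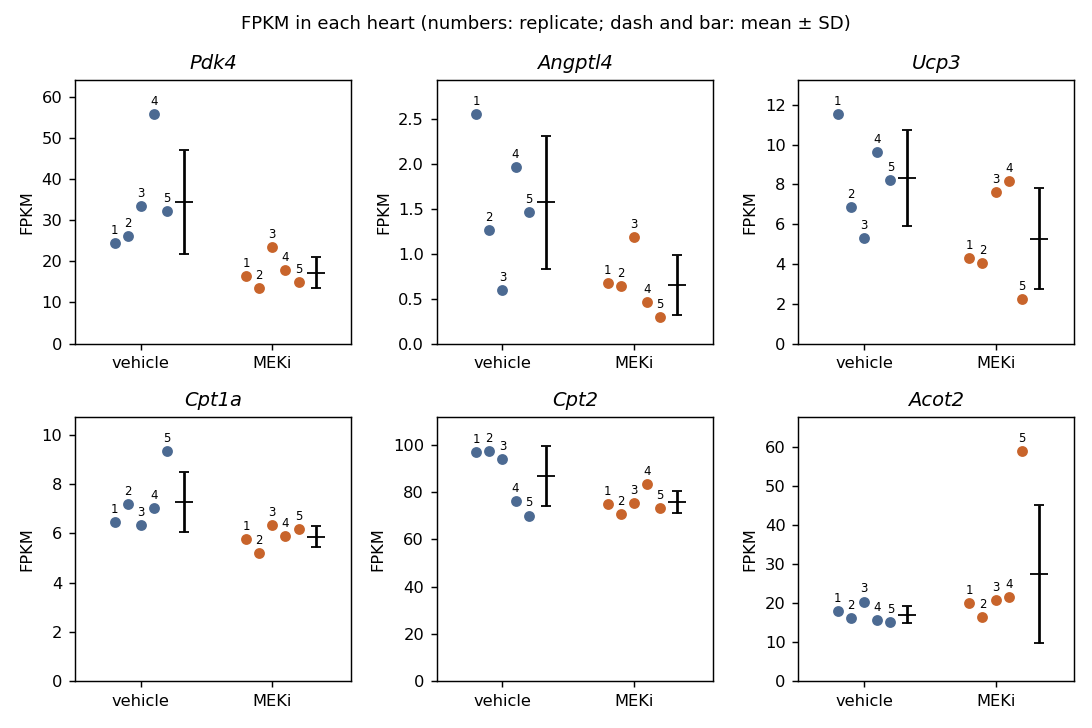
FPKM in each heart for the 4 genes with an unadjusted p under 0.05 and for *Cpt2* and *Acot2*, with vehicle hearts in blue, MEKi hearts in orange, the replicate number above each point, and the mean ± SD (n = 5) as a dash and bar. The groups are apart for *Pdk4* alone, and MEKi heart 5 is apart for *Acot2* at 58.9 FPKM.

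The count of 4 lower members depended on single hearts and on the scale. It was 2 without MEKi heart 2 and on a TPM scale, leaving *Pdk4* and *Angptl4*. It was also 2 without the 3 hearts of high atrial transcript, which then were *Pdk4* and *Cpt2*. With quantile normalization it was 6, with *Acot13* and *Cpt2* in addition to the 4. Members higher at an unadjusted p under 0.05 numbered 4 without vehicle heart 1 and 3 without vehicle heart 3. The shares of all genes were not counted under these settings, so these counts have no background beside them.

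Among the other uptake genes, *Fabp3* was at 4525, 3740, 2469, 3532 and 2874 FPKM in vehicle hearts and at 3825, 3837, 3610, 4051 and 3008 FPKM in MEKi hearts. The MEKi values lay within the vehicle range, and the means of 3428 ± 797 and 3666 ± 400 FPKM (SD, n = 5) differed by less than the spread of the vehicle hearts. *Cd36*, the fatty acid translocase, averaged 293 ± 35.9 and 272 ± 19.4 FPKM, and *Lpl*, the lipase that frees fatty acids from lipoproteins and the target of ANGPTL4, 499 ± 43.8 and 545 ± 93.5 FPKM. *Slc27a1*, a transporter with acyl-CoA synthetase activity, averaged 16.1 ± 3.66 and 18.9 ± 1.76 FPKM. The adjusted limma p was 0.72 or above for these genes.

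In the carnitine shuttle, *Cpt2*, the inner membrane enzyme that returns acylcarnitines to acyl-CoA, was at 97.1, 97.3, 93.9, 76.4 and 70.2 FPKM in vehicle hearts and at 75.2, 71.0, 75.3, 83.4 and 73.5 FPKM in MEKi hearts. Vehicle hearts 1 to 3 were above every MEKi heart, and vehicle hearts 4 and 5, the hearts rich in red cell transcript, were within or below the MEKi range. The log2 fold change was −0.19 ± 0.11 (SE; adjusted p = 0.715 in limma) over all hearts and −0.32 (adjusted p = 0.726 in limma) without the 3 hearts of high atrial transcript. *Acsl1*, which activates long-chain fatty acids, averaged 39.6 ± 11.1 and 40.8 ± 5.06 FPKM. *Crat*, which buffers acetyl-CoA as acetylcarnitine, averaged 78.1 ± 14.5 and 73.9 ± 6.38 FPKM. *Acacb*, which makes the CPT1 inhibitor malonyl-CoA, and *Mlycd*, which removes it, had log2 fold changes of 0.08 ± 0.15 and 0.03 ± 0.12 (SE).

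The muscle isoform *Cpt1b*, which is abundant in heart muscle, had 6 to 43 fragments per heart. It was at 0.652, 0.411, 0.125, 0.405 and 0.367 FPKM in vehicle hearts and at 0.744, 0.415, 0.323, 0.464 and 0.472 FPKM in MEKi hearts, and the groups overlapped. *Cpt1a* exceeded it 9.94- to 50.6-fold in vehicle and 7.73- to 19.7-fold in MEKi hearts on the FPKM scale. In the annotation, 81.4% of the exonic bases of *Cpt1b* (chromosome 15, 89416405 to 89425863) are shared on the same strand with *Gm44502*, a gene listed at 0 in every heart. Assigning all its fragments to the 628 unshared bases would give a mean of 2.35 FPKM. How fragments on shared exons were counted is not given in the sources used here and their part in this level was not tested, so the level of *Cpt1b* is uncertain. The length deposited for *Cpt1a*, 4300 bases, is also shorter than the 7642 exonic bases of the annotation compared here. With the same fragments over the longer length, its mean would be 3.7 FPKM and the ratio of the isoforms 1.78-fold smaller. Fragments on bases left out of the count, if any, are not in these values, so that this ratio is uncertain on both counts.

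The 12 genes of the beta-oxidation spiral had log2 fold changes from −0.08 (*Acads*) to 0.37 (*Acadvl*). By sign, 10 of the 12 were higher with MEKi and 2 lower, with a median log2 fold change of 0.12 against 0.01 for all genes and 0 passing an unadjusted or adjusted limma p of 0.05. The shift was not particular to this list. Of the 8 cardiomyocyte markers, 6 were higher and 2 lower by sign, with a median of 0.14. Without the 3 hearts of high atrial transcript the signs of the 12 genes were again 10 and 2, and their median was 0.06. Their summed level was 1903 to 2351 FPKM in vehicle hearts (mean, 2157 ± 209) and 2086 to 2535 FPKM in MEKi hearts (mean, 2331 ± 174). Of the acyl-CoA dehydrogenases that open each round, *Acadl* (long chain) averaged 461 ± 41.8 and 498 ± 18.7 FPKM, *Acadm* (medium chain) 218 ± 34.8 and 247 ± 13.9 FPKM, and *Acads* (short chain) 98.4 ± 10.3 and 93.2 ± 12.0 FPKM. *Acadvl* (very long chain) averaged 86.4 ± 26.1 and 111 ± 29.6 FPKM, and 42.9% of its exonic bases overlap *Dvl2* on the opposite strand, whose reads cannot be separated where counting ignores strand. Its mean over all hearts, 98.6 FPKM, would be 173 FPKM if all its fragments came from the unshared bases.

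*Hadha* and *Hadhb*, the subunits of the mitochondrial trifunctional protein, had log2 fold changes of 0.13 ± 0.12 and 0.17 ± 0.10 (SE). *Hadh* and *Echs1*, the dehydrogenase and hydratase for shorter chains, had 0.10 ± 0.10 and 0.15 ± 0.11. *Eci1*, the isomerase that lets unsaturated fatty acids enter the spiral, had the lowest p of the list (log2 fold change, 0.23 ± 0.11; unadjusted p = 0.0589 and adjusted p = 0.664 in limma), with 221 to 289 FPKM in vehicle and 232 to 318 FPKM in MEKi hearts. *Eci2* and *Decr1*, which also handle unsaturated chains, had 0.08 ± 0.09 and 0.08 ± 0.10. *Acaa2*, the thiolase of the last step and the most abundant gene of the list, was at 685, 575, 520, 452 and 515 FPKM in vehicle hearts and at 559, 561, 636, 622 and 377 FPKM in MEKi hearts, and the means of 549 ± 87.5 and 551 ± 103 FPKM (SD, n = 5) were within the spread of either group.

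Of the electron carriers, *Etfa* was at 250, 274, 291, 272 and 196 FPKM in vehicle hearts and at 319, 264, 267, 331 and 293 FPKM in MEKi hearts, and 3 MEKi hearts were above every vehicle heart (log2 fold change, 0.21 ± 0.12; adjusted p = 0.722 in limma). Without vehicle heart 5, the lowest of the 10, the log2 fold change was 0.11. *Etfdh*, which passes the electrons to ubiquinone, averaged 50.9 ± 9.92 and 50.1 ± 5.43 FPKM. *Etfb*, the partner subunit of *Etfa*, ranged from 56.1 to 154 FPKM in vehicle hearts, a coefficient of variation of 46.2%, and from 78.6 to 129 FPKM in MEKi hearts. *Etfb* shares 58.2% of its exonic bases with *Gm45233* and *Mir7051*, which were listed at 0 in every heart. Its mean of 92.5 FPKM would be 222 FPKM if all its fragments came from the unshared bases, so its level is uncertain.

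The thioesterases release fatty acids from acyl-CoA. *Acot13* was at 495, 454, 451, 489 and 476 FPKM in vehicle hearts and at 413, 449, 433, 485 and 359 FPKM in MEKi hearts, where 4 of the 5 were below the lowest vehicle heart (log2 fold change, −0.15 ± 0.10; adjusted p = 0.756 in limma). It was −0.09 without MEKi heart 5, the lowest of the 10, and −0.07 on a TPM scale. Mitochondrial *Acot2* was at 17.8, 16.2, 20.4, 15.5 and 15.0 FPKM in vehicle hearts and at 20.1, 16.4, 20.7, 21.5 and 58.9 FPKM in MEKi hearts. MEKi heart 5 was far above the others, and the log2 fold change of 0.53 ± 0.28 (SE; adjusted p = 0.697 in limma) was 0.21 without it. Its cytosolic paralog *Acot1* was at 3.17, 1.89, 1.83, 1.36 and 1.81 FPKM in vehicle hearts and at 2.40, 1.99, 2.57, 2.52 and 2.29 FPKM in MEKi hearts, where MEKi heart 5 was within the range of the other hearts. The sequences of *Acot1* and *Acot2* are close, so the division of fragments between them is uncertain.

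Genes of triacylglycerol turnover had log2 fold changes from −0.12 (*Plin2*) to 0.11 (*Pnpla2*), with 2 lower and 4 higher by sign and a median log2 fold change of 0.03. Without the 3 hearts of high atrial transcript, 5 were lower and 1 higher, with a median of −0.07. *Dgat2*, an acyltransferase of the last step of triacylglycerol synthesis, was at 116, 119, 107, 98.6 and 91.9 FPKM in vehicle hearts and at 108, 110, 109, 135 and 87.8 FPKM in MEKi hearts. It exceeded *Dgat1*, the other such acyltransferase, 16.7- to 25.1-fold in vehicle and 16.8- to 22.2-fold in MEKi hearts. The lipases *Pnpla2* and *Lipe* averaged 102 ± 12.0 and 5.96 ± 0.926 FPKM in vehicle and 109 ± 7.52 and 5.80 ± 1.54 FPKM in MEKi hearts.

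The lipid droplet coat gene *Plin2* was at 14.3, 13.5, 13.0, 14.4 and 14.2 FPKM in vehicle hearts and at 11.7, 15.1, 12.0, 13.2 and 11.9 FPKM in MEKi hearts (log2 fold change, −0.12 ± 0.09; adjusted p = 0.781 in limma). *Plin5*, the coat protein of oxidative tissues, was at 55.0, 62.4, 55.3, 50.1 and 40.3 FPKM in vehicle hearts and at 59.4, 47.8, 42.8, 59.4 and 58.7 FPKM in MEKi hearts. For *Plin2*, 3 of the 5 MEKi hearts were below every vehicle heart, while for *Plin5* all MEKi hearts were within the vehicle range. *Plin5* exceeded *Plin2* 2.84- to 4.63-fold in vehicle and 3.17- to 5.1-fold in MEKi hearts.

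The spread between hearts differed among the members. The median coefficient of variation of the members was 15.5% in vehicle and 10.9% in MEKi hearts, against 18.9% and 14.7% over all genes. This comparison was not matched for level. Of the 37 genes, 35 averaged 5 FPKM or more, against 5161 of all 12602 genes. In vehicle hearts it ran from 4.23% for *Acot13* to 46.9% for *Angptl4*, leaving *Cpt1b* aside, and in MEKi hearts from 3.76% for *Acadl* to 64.2% for *Acot2*. Vehicle heart 5 was the lowest of the 10 hearts for 18 of the 37 genes, with a median of −0.20 on the log2 scale relative to the vehicle mean. MEKi heart 5 was the lowest for 10 genes. Vehicle heart 1 was the highest for 9 genes and MEKi heart 4 for 8.

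**Figure D4:**
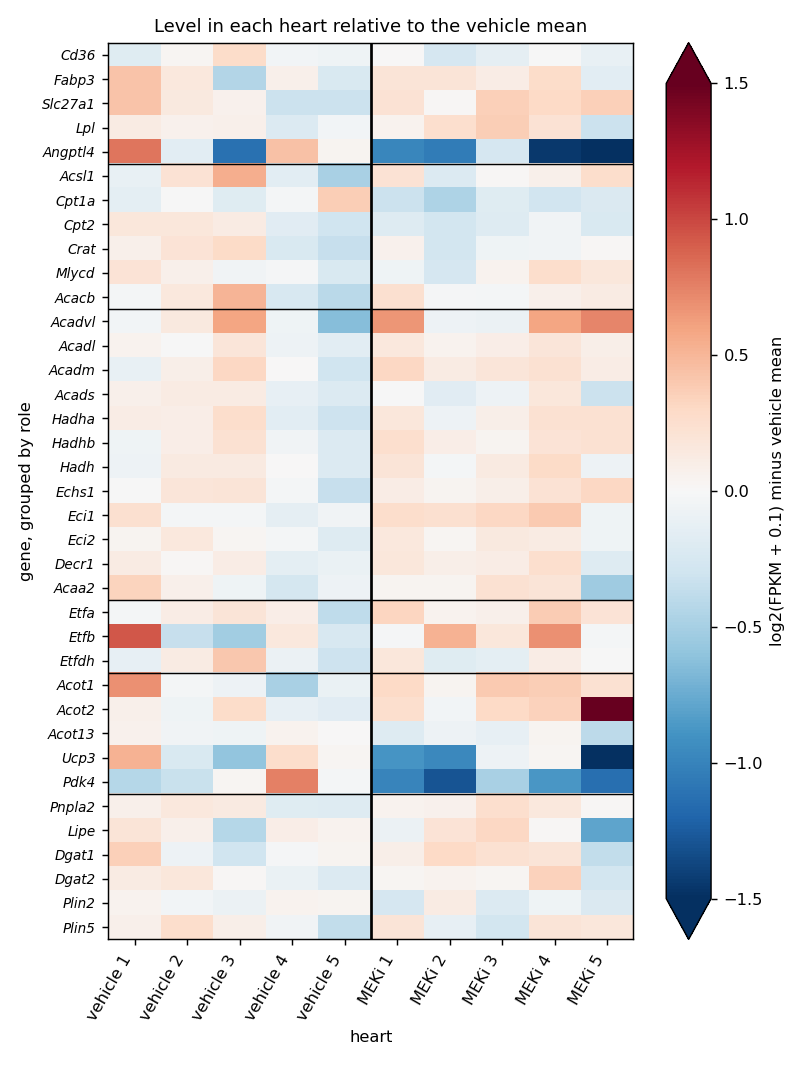
Level of each of the 37 genes in each heart relative to the vehicle mean, on the scale log2(FPKM + 0.1), with red above and blue below that mean and genes grouped by role. The column of vehicle heart 5 is blue for most genes (median, −0.20), and the *Pdk4* row is blue across all 5 MEKi hearts.

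A wider list of 88 other genes of the same pathways held 74 that were tested, of which 39 were lower and 35 higher by sign, with a median log2 fold change of −0.01. None passed the adjusted limma threshold. At an unadjusted p under 0.05, 0 were lower, against 3.94% of all genes, and 4 were higher (5.41% of the 74), against 3.67% of all genes. These were *Slc27a3*, an acyl-CoA synthetase of the fatty acid transporter family, *Acadsb*, a dehydrogenase of branched short chains, *Hsd17b4*, the peroxisomal bifunctional enzyme, and *Acss1*, the mitochondrial acetyl-CoA synthetase. *Slc27a3* was the only gene of the 74 with groups that did not overlap in the higher direction (1.35%, against 0.794% of all genes). It was at 0.192 to 0.486 FPKM in vehicle and 0.631 to 0.907 FPKM in MEKi hearts (log2 fold change, 0.86; adjusted p = 0.418 in limma). It had only 7 to 40 fragments per heart. Its vehicle mean of 0.375 FPKM was below the filter of 0.5 FPKM, so *Slc27a3* was tested only because of its level in MEKi hearts. The log2 fold changes of the other 3 were 0.27, 0.24 and 0.46, with adjusted p-values of 0.558, 0.609 and 0.625 in limma.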

How the data were processed

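RNA-seq of poly(A)-selected RNA was available for 10 hearts, grouped by the treatment in their labels. The authors deposited FPKM per gene in 1 table, with gene lengths and coordinates and no comparison columns, and 0 columns were left unmapped. Processing notes name fastp, STAR 2.5, HTSeq 0.6.1 and mm10, and the annotation, strand setting and library scaling are not given in the sources used here. FPKM multiplied by gene length gave whole fragments within 0.01, which served for depth. Limits at a count of 0 were set at 3 fragments and cover counting error only.

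Genes averaging 0.5 FPKM or more were fitted as log2(FPKM + 0.1) in limma 3.58.1 (R 4.3.3; lmFit, eBayes with trend), two-sided, with Benjamini-Hochberg adjustment over 12602 genes and a threshold of 0.05. Fold changes are on that scale and understate changes of low genes. The fit was tested on simulated data. Exact permutation tests ran over every split of the 10 hearts into 5 and 5, and their p-values are unadjusted. They are printed for genes picked by an unadjusted limma p under 0.05 on the same hearts, so they add no independent support. Summaries used Python 3.11.15, numpy 2.4.6 and pandas 2.3.3.

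The 38 genes, their role lists and the tests were chosen with earlier results of these data known. Values by heart are given for genes with an unadjusted p under 0.05 or groups that do not overlap, the most abundant gene of each role, the pairs *Cpt1a*/*Cpt1b*, *Acot1*/*Acot2* and *Plin2*/*Plin5*, and *Pdk4*, *Ucp3* and *Angptl4*. Other pathway genes are named at an unadjusted p under 0.05. Exon overlaps came from the GRCm38 annotation, where 98.0% of matched genes had the deposited length. Alternatives were other pseudocounts, filters and scalings, voom, array weights, a replicate block, and leaving out hearts or genes. The 3 hearts with high atrial transcript were picked for that alternative from earlier results of these data.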

Additional observations from a re-analysis of the deposited data

Results flagged for a closer look

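In 4 of 76 groups of 5 hearts examined, 1 heart lay apart from the others by more than Dixon's critical share of the group's range (0.71), and chance alone flags about 1 in 20 groups, here 3.8. *Cpt1a* was at 9.33 FPKM in vehicle heart 5, against 6.33 to 7.19 FPKM in the other vehicle hearts (gap, 0.712 of the range). *Eci1* was at 289 FPKM in vehicle heart 1, against 221 to 239 FPKM (0.737). *Lipe*, the hormone-sensitive lipase, was at 4.36 FPKM in vehicle heart 3, against 6.11 to 6.77 FPKM (0.722). *Acot2* was at 58.9 FPKM in MEKi heart 5, against 16.4 to 21.5 FPKM (0.881).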

How the results depend on the processing

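Members past an adjusted p of 0.05 numbered 0 under all 24 alternatives. The 10 genes called over all genes became 2 at a minimum mean of 5 FPKM, 18 with array weights, 0 without X, Y and mitochondrial genes, 5 without the 3 hearts of high atrial transcript, and 5 to 13 on leaving out single hearts. The labels number the hearts 1 to 5 in both groups, but same-numbered hearts did not deviate together (correlations from −0.154 to −0.0209) and 0 vehicle hearts correlated best with their own number; with the replicate number as a block, 4 genes were called. Members lower at an unadjusted p under 0.05 numbered 2 on a TPM scale, 2 without those 3 hearts, 6 with quantile normalization and 2 to 4 on leaving out single hearts. Members higher numbered 1 on a TPM scale, 1 with array weights and 0 to 4 on leaving out single hearts. The cause of these shifts was not tested, beyond the smaller number of hearts or genes. The shares of all genes at an unadjusted p under 0.05 were not counted under these alternatives.

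*Pdk4* ranged from −1.07 to −0.63 on the log2 scale (adjusted p, 0.141 to 0.726 in limma), *Angptl4* from −1.42 to −0.61 (0.277 to 0.828), *Ucp3* from −0.93 to −0.47 (0.425 to 0.911) and *Cpt1a* from −0.34 to −0.14 (0.386 to 0.904). The median of the members ran from −0.00399 to 0.158. The highest value was on a TPM scale, where the median of all genes was 0.0863 in place of 0.0107. Leaving out single hearts moved *Fabp3* (0.12) to between 0.01 and 0.23 and *Acot1* (0.27) to between 0.14 and 0.44, and a TPM scale gave −0.05 for *Plin2* and −0.11 for *Cpt2*. Values near 0 turned in sign. *Plin5* was −0.0157 with quantile normalization, −0.0227 with array weights, −0.074 without the 3 hearts and −0.0627 to 0.107 on leaving out single hearts. *Acaa2* was 0.0721 on a TPM scale, 0.0675 with array weights and −0.0733 to 0.125 on leaving out single hearts. *Dgat2* was −0.0441 with quantile normalization, −0.0695 without the 3 hearts and −0.0377 to 0.117 on leaving out single hearts. Depth limits *Angptl4* and *Cpt1b*, with at most 141 and 43 fragments per heart. Among the other pathway genes it limits *Slc27a3*, with at most 40.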
